A study of Mus musculus with 18 samples.

Results

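The 10 genes described here encode the NF-κB transcription factor subunits and the proteins that restrain them. They are the subunit genes Rela, Rel, Relb, Nfkb1 and Nfkb2, the classical inhibitor genes Nfkbia, Nfkbib and Nfkbie, the nuclear inhibitor-like gene Nfkbiz, and Tnfaip3, which encodes the ubiquitin-editing enzyme A20. They were chosen by symbol. Each symbol matched 1 gene ID, so they are 10 of the 53379 gene IDs in the counts table. All 10 passed the filter on low counts, as did 11569 genes in all.

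RNA was sequenced from neutrophils sorted by flow cytometry from the bone marrow of mice 10 weeks old. The mice were labelled CIS-/-, lacking the cytokine-signalling inhibitor CIS that Cish encodes, or wild type (WT). The sources used here do not give the deleted part of Cish. For each genotype there were 3 libraries of unstimulated cells taken straight after the sort, 3 of cells cultured with GM-CSF at 100 ng/mL for 4 h and 3 of cells cultured so for 24 h, in RPMI1640 with penicillin-streptomycin and heat-inactivated serum. GM-CSF is a growth and survival factor of neutrophils, and the series addresses how CIS limits its action. There was no culture without GM-CSF, so the effects of time in culture and of GM-CSF cannot be told apart. The labels do not say whether the 3 replicates of a group are separate mice, and a p-value then reflects only how far these libraries spread, which may be technical.

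NF-κB proteins act as paired subunits. In resting cells the IκB proteins hold most of these pairs in the cytoplasm; receptors for microbial products, interleukin-1 or tumour necrosis factor activate the IκB kinases, the IκB proteins are degraded and the pairs enter the nucleus. Many of the genes they then switch on encode the pathway's own parts and brakes, including IκBα (Nfkbia) and A20 (Tnfaip3), and in neutrophils NF-κB is known for driving cytokine genes and delaying cell death. Transcript levels, which are what was measured here, do not show how much of each protein was in the nucleus.

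The libraries held between 12170524 and 22539858 counts each. Levels are given as CPM, counts relative to a library size that was scaled by TMM factors, and a gene was called where the Benjamini-Hochberg adjusted p of edgeR's quasi-likelihood test over 11569 genes was under 0.05. The targeted gene Cish was at 237 to 243 CPM in the libraries labelled CIS-/- at 4 h, against 1138 to 1155 CPM in WT libraries. Without stimulation it was at 17.9 to 20.0 CPM in the libraries labelled CIS-/-, against 6.48 to 6.52 CPM in WT libraries, so there Cish goes against the label and every direction drawn from the unstimulated libraries rests on the label alone. Of 14 neutrophil markers, 13 or 14 averaged 1 CPM or more in each group. Unstimulated, their summed level was 123886 to 127994 CPM in the libraries labelled CIS-/- and, without overlap, 129695 to 131039 CPM in WT libraries. At 4 h it was 70897 to 76098 CPM in the libraries labelled CIS-/- and 76755 to 78098 CPM in WT libraries, again without overlap. At 24 h the sum was 34321 to 38871 CPM in the libraries labelled CIS-/- and 33905 to 35278 CPM in WT libraries. Under the near sums at 24 h, the neutrophil markers moved both ways. S100a9 averaged 13645 CPM in the libraries labelled CIS-/- against 9660 in WT libraries, and S100a8 10121 against 7676 CPM. Retnlg averaged 86.7 CPM in those labelled CIS-/- against 516 in WT, Csf3r 2326 against 5900 and Cxcr2 867 against 1835 CPM. Their part in the 24 h results was not tested. Markers of B cells and of T and NK cells each summed to less than 10 CPM in every library. Replicate 1 labelled CIS-/- at 24 h stood apart from its group, with a chi-square of the counts per degree of freedom of 6.82 and 8.461 against replicates 2 and 3, where the other pairs of replicates gave 1.285 to 2.899. In bulk libraries, fewer cells of a type and less RNA per cell cannot be told apart.

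After 24 h with GM-CSF, all 10 genes were higher in the libraries labelled CIS-/- than in WT libraries. Of all genes tested, 38.2% were called higher and 38.1% lower in this comparison. The median log2 fold change was 2.26 over the 10 genes and -0.02 over all genes, and 9 of the 10 were at least 2-fold higher, against 18.2% of all genes. Nfkbia, Tnfaip3 and Relb led, and Rela, the subunit that moved least, was 1.36-fold higher. For each of the 10, the lowest library labelled CIS-/- lay above the highest WT library at 24 h, which held in this direction for 37.6% of all genes. A fit of the 24 h libraries alone, which holds no unstimulated library, also called all 10 higher. Without replicate 1 labelled CIS-/-, all 10 were called higher too, at log2 0.44 for Rela to 3.22 for Nfkbia, and the interactions to 24 h given further on kept their sign and call for all 10 genes.

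The all-gene split at 24 h depends on the scaling of the libraries. With library sizes and no TMM factors, the median of all genes was -0.55, 2558 genes were called higher and 6999 lower, where TMM factors gave 4416 higher and 4411 lower. Of the 10 genes, 9 were then still called higher, while Rela was called lower, at -0.08 on the log2 scale. The monocyte and macrophage markers summed to 946 to 987 CPM in the libraries labelled CIS-/- at 24 h, against 503 to 523 CPM in WT libraries. Of these 14 markers, 4 averaged 1 CPM or more in the libraries labelled CIS-/- and 3 in WT libraries. Adgre1, at 777 ± 18 CPM in the libraries labelled CIS-/- and 344 ± 12 CPM in WT libraries (SD, n = 3 each), and Csf1r, at 169 ± 4.9 CPM in the libraries labelled CIS-/- and 163 ± 1.3 CPM in WT libraries, made up most of both sums. Fcgr1 was at 10.7 ± 0.57 CPM in the libraries labelled CIS-/- and 7.54 ± 0.42 CPM in WT libraries, and F13a1 at 3.12 ± 0.26 CPM in the libraries labelled CIS-/- and 0.276 ± 0.061 CPM in WT libraries. The other 10, among them Ly86, Ccr2, Cx3cr1, C1qa, C1qb, C1qc and Mrc1, were each under 1 CPM on average in both groups. Dendritic cell markers summed to 248 to 276 CPM in the libraries labelled CIS-/-, against 85.4 to 87.8 CPM in WT libraries, mostly from Cd74 and Itgax. Of these 12 markers, 7 averaged 1 CPM or more in the libraries labelled CIS-/- and 4 in WT libraries. The class II genes H2-Eb1, H2-Aa and H2-Ab1 averaged 11, 6.27 and 2.19 CPM in the libraries labelled CIS-/-, against 0.388, 0.336 and 0.282 CPM in WT libraries, and Xcr1 had no count at 24 h. Erythroid and megakaryocyte markers summed to 32.5 to 45.7 CPM in the libraries labelled CIS-/-, against 11.9 to 13 CPM in WT libraries at 24 h, and eosinophil, basophil and mast cell markers to 79.1 to 89.8 CPM in the libraries labelled CIS-/-, against 61.3 to 71.5 CPM in WT libraries. The part of these markers in the results at 24 h was not tested.

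**Figure D1:**
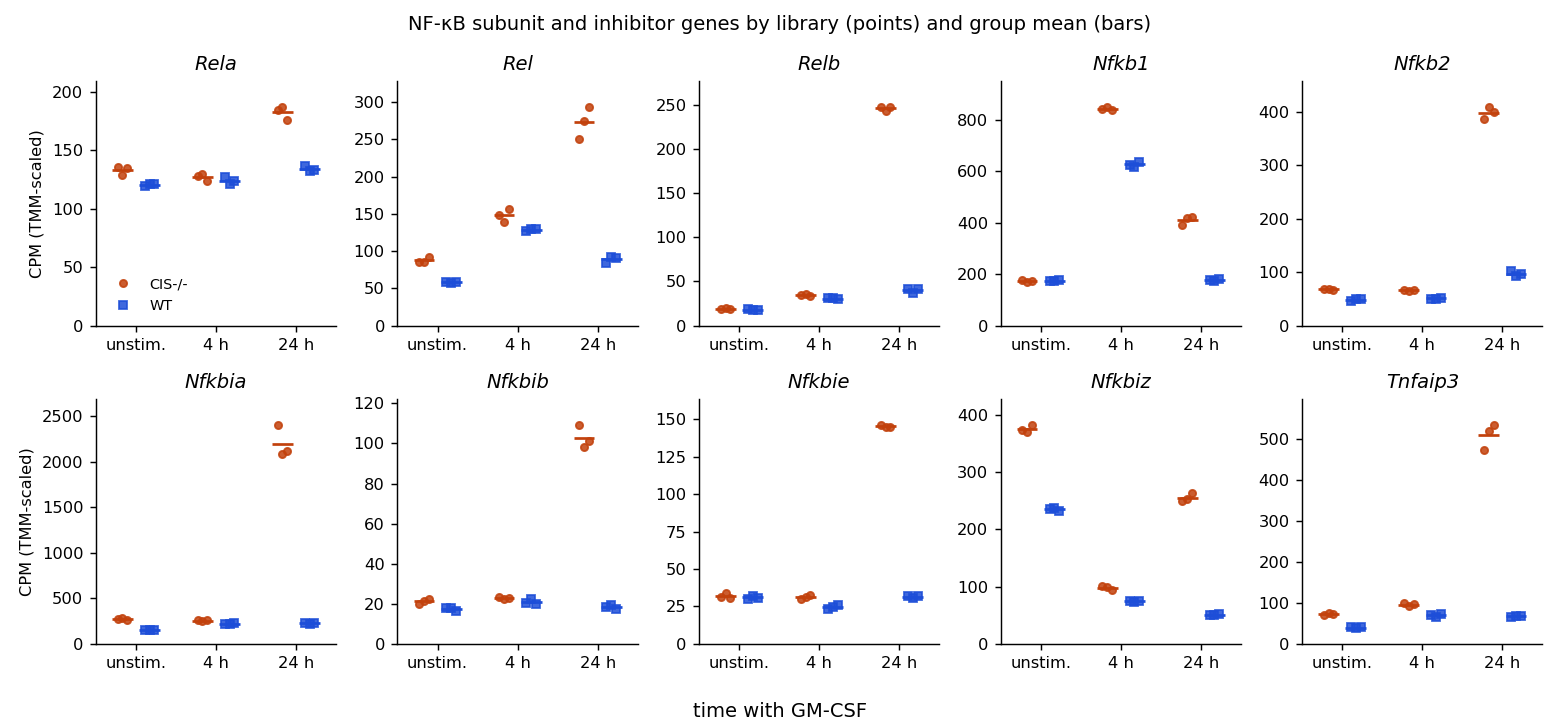
Level of each of the 10 genes in every library, in CPM with TMM-scaled library sizes (vertical axes start at 0), unstimulated and at 4 h and 24 h with GM-CSF. Circles are libraries labelled CIS-/-, squares WT libraries, and bars the means of 3; at 24 h the circles lie above the squares in all 10 panels, though with library sizes alone the Rela difference at 24 h turned to -0.08 (log2).

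Promoter sequences are shown because NF-κB proteins bind a short DNA element, the κB motif. It was searched for here as GGGNN followed directly by TTNCC, on both strands. RefSeq promoter windows on GRCm38.p6, from 250 bases before to 50 after each start site, were at hand for 7 of the 10 genes. Relb, Nfkb1 and Nfkbiz had none in the table. The motif was found in a window of 4 of the 7 genes, namely Tnfaip3, Rel, Nfkbia and Nfkb2, and in 5.48% of the 27025 genes with a window (1480 genes). No match was found in those of Rela, Nfkbib and Nfkbie, which says only that these letters are not in these windows. Each stretch runs 5′ to 3′ on the gene's strand, with the match in capitals and up to 40 bases on either side, and stops before the start site. All 3 matches read as the motif on the other strand.
Tnfaip3, chr10:19015411-19015462, minus strand: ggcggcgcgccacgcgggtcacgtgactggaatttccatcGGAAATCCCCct
Rel, chr11:23771012-23771101, minus strand: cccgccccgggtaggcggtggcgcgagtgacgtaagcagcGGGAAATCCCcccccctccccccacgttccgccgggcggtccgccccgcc
Nfkbia, chr12:55492648-55492716, minus strand: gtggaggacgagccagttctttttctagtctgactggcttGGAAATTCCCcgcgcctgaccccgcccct
In the Rel promoter a further match, GGAAATCCCC, overlaps the one shown and is shifted by 1 base. The windows of Nfkb2 on chromosome 19 hold GGGAATTCCC, which reads the same on both strands, the overlapping pair GGGGCTTTCC and GGGCTTTCCC, and GGGACTTTCC. A match is a description of the letters and not a measured binding site, and its part in the differences at 24 h was not tested.

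Of the subunits that carry their own activation domain, Rela (p65) was the steadiest. Rela lies at chr19:5637483-5648130 on the plus strand of GRCm38. Libraries labelled CIS-/- held 136, 129 and 135 CPM of Rela unstimulated, 128, 130 and 124 CPM at 4 h and 185, 187 and 176 CPM at 24 h. WT libraries held 120, 121 and 121 CPM unstimulated, 127, 121 and 124 CPM at 4 h and 137, 132 and 133 CPM at 24 h. The genotypes overlapped at 4 h and were apart at the other times, and the highest group mean of Rela was 1.52 times the lowest. The genotype difference was 0.15 ± 0.04 (log2 fold change ± SE, adjusted p = 0.00311) unstimulated, 0.04 ± 0.04 (adjusted p = 0.578, 95% interval -0.04 to 0.12) at 4 h and 0.45 ± 0.04 (adjusted p = 5.69e-17) at 24 h, the last being -0.08 with library sizes alone.

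Rel encodes c-Rel, a subunit of blood cells, and lies at chr11:23736847-23770970 on the minus strand. Levels of Rel in libraries labelled CIS-/- were 85.4, 85.9 and 92.4 CPM unstimulated, 148, 139 and 157 CPM at 4 h and 251, 274 and 293 CPM at 24 h. WT libraries held 58.6, 57.0 and 58.8 CPM unstimulated, 127, 130 and 130 CPM at 4 h and 84.7, 92.1 and 90.7 CPM at 24 h. Rel thus climbed at both steps in the libraries labelled CIS-/-, while in WT libraries it was highest at 4 h, and the genotypes were apart at all 3 times. Between 4 h and 24 h Rel rose by 0.89 ± 0.04 (log2, adjusted p = 1.13e-24) in the libraries labelled CIS-/- and fell in WT libraries, at -0.53 ± 0.05 (log2, adjusted p = 9.02e-15). The fall in WT was -0.04 (adjusted p = 0.404) with library sizes alone, a scaling that put the median of all genes at 0.45 in this comparison.

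Relb, the partner of the p52 protein in the non-canonical branch of the pathway, was the subunit with the largest genotype difference. Relb lies at chr7:19606217-19629438 on the minus strand. Libraries labelled CIS-/- held 18.9, 20.2 and 19.1 CPM of Relb unstimulated, 34.4, 35.9 and 33.9 CPM at 4 h and 247, 243 and 247 CPM at 24 h. WT libraries held 18.6, 17.5 and 18.3 CPM unstimulated, 31.0, 31.1 and 30.1 CPM at 4 h and 41.7, 37.2 and 41.2 CPM at 24 h. The 3 late libraries labelled CIS-/- stood far above all others, and in both genotypes Relb was higher at each later time. The difference at 24 h was 6.17-fold (log2 2.63 ± 0.04, adjusted p = 1.9e-51), against 1.07-fold (adjusted p = 0.375, 95% interval of the log2 value -0.04 to 0.23) unstimulated, where the groups did not overlap but the gene was not called. At 4 h the log2 difference was 0.18 ± 0.06 (adjusted p = 0.0326). That call was lost without WT 4 h replicate 1, 2 or 3 (adjusted p = 0.0683, 0.0669 and 0.115), without replicate 1 or 2 labelled CIS-/- at 4 h (adjusted p = 0.0514 and 0.188), and with no filter on low counts (adjusted p = 0.0746).

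Nfkb1 and Nfkb2 encode the precursors p105 and p100, which are cut to the DNA-binding subunits p50 and p52 and act as inhibitors while uncut. Nfkb1, at chr3:135584655-135691547 on the minus strand, was the early gene of the set. Levels of Nfkb1 in libraries labelled CIS-/- were 177, 171 and 175 CPM unstimulated, 843, 849 and 840 CPM at 4 h and 390, 419 and 423 CPM at 24 h. WT libraries held 174, 172 and 177 CPM unstimulated, 626, 618 and 637 CPM at 4 h and 178, 175 and 181 CPM at 24 h. The unstimulated genotypes overlapped, both rose to their peak at 4 h, and at 24 h the WT libraries overlapped their unstimulated range while those labelled CIS-/- lay above theirs. At 4 h against unstimulated Nfkb1 rose 4.85-fold (log2 2.28 ± 0.03, adjusted p = 1.63e-53) in the libraries labelled CIS-/- and 3.59-fold (log2 1.85 ± 0.03, adjusted p = 9.21e-49) in WT libraries. Unstimulated, the genotype difference was -0.00 ± 0.04 (log2, adjusted p = 0.975, 95% interval -0.07 to 0.07); WT libraries at 24 h differed from unstimulated ones by 0.03 ± 0.03 (log2, adjusted p = 0.428, 95% interval -0.04 to 0.10).

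Nfkb2, at chr19:46304320-46312385 on the plus strand, did not share that early peak. Libraries labelled CIS-/- held 68.7, 68.1 and 66.5 CPM of Nfkb2 unstimulated, 66.3, 65.6 and 66.7 CPM at 4 h and 386, 408 and 400 CPM at 24 h. WT libraries held 45.9, 49.0 and 50.4 CPM unstimulated, 50.4, 49.9 and 52.3 CPM at 4 h and 102, 93.6 and 96.4 CPM at 24 h. Nfkb2 changed late in both genotypes, and the genotypes were apart at all 3 times. Between 4 h and 24 h it rose 6.02-fold (log2 2.59 ± 0.04, adjusted p = 2.38e-52) in the libraries labelled CIS-/- and 1.91-fold (log2 0.93 ± 0.05, adjusted p = 3.99e-27) in WT libraries. Its exons overlap those of Psd on the opposite strand, which held 86 counts in the 18 libraries against 34631 for Nfkb2.

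The make-up of the subunit transcripts shifted with time. To compare genes, CPM were divided by exon length in kb, taken over all annotated exons of a gene merged. The 5 subunit genes then had a summed level of 89.4 ± 1.3 CPM per kb in the unstimulated libraries labelled CIS-/- and 76.7 ± 0.81 CPM per kb in the unstimulated WT libraries (SD, n = 3 each, here and below). At 4 h the sum was 155 ± 0.38 CPM per kb in the libraries labelled CIS-/- and 129 ± 1.4 in WT libraries, and at 24 h it was 280 ± 5.4 CPM per kb in the libraries labelled CIS-/- and 102 ± 1.9 in WT libraries. Rela made up 48.5 ± 0.54% of the unstimulated sum in the libraries labelled CIS-/- and 51.1 ± 0.39% in WT libraries. At 4 h Nfkb1 was the largest subunit share, at 45.3 ± 0.15% in the libraries labelled CIS-/- and 40.4 ± 0.31% in WT libraries. At 24 h the leading subunit differed between the genotypes: Nfkb2 led at 31.0 ± 0.3% in the libraries labelled CIS-/-, against 20.8 ± 0.51% in WT libraries. Rela, the largest WT share at 42.8 ± 0.32%, was at 21.3 ± 0.85% in the libraries labelled CIS-/- at 24 h. The Relb share at 24 h was 22.6 ± 0.59% in the libraries labelled CIS-/- and 10.1 ± 0.45% in WT libraries. Shares within a library do not depend on how the libraries are scaled, and these are descriptions with no test. The shares do depend on the exon length, 12061 bases for Nfkb1 and 3072 for Rela, which spans all annotated transcripts. Which transcripts the cells made was not measured, so the order of the subunits could differ with other lengths.

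**Figure D2:**
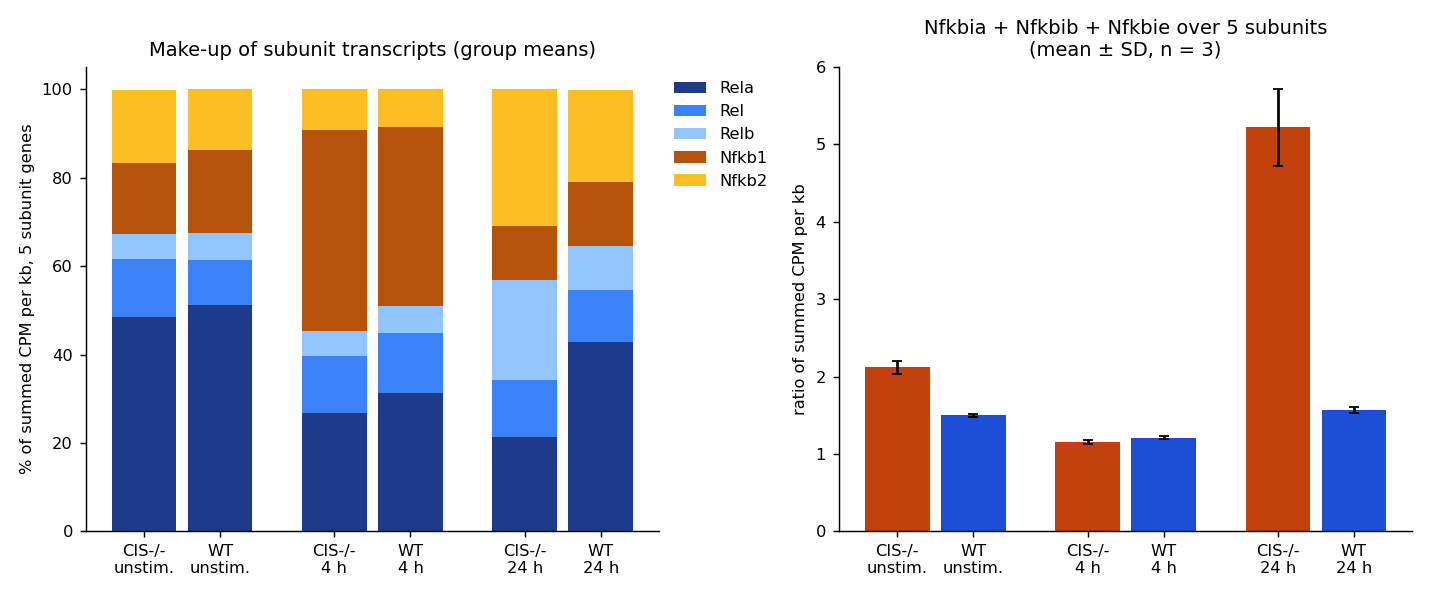
Left, share of each subunit gene in the summed CPM per kb (all annotated exons) of the 5 subunit genes, as group means of 3 libraries. Right, summed CPM per kb of Nfkbia, Nfkbib and Nfkbie divided by that of the 5 subunit genes, as mean ± SD of 3 libraries; the ratio was 5.22 ± 0.5 in the libraries labelled CIS-/- at 24 h and 1.57 ± 0.037 in WT libraries at 24 h.

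Nfkbia encodes IκBα, the main cytoplasmic brake on Rela and Rel complexes, and lies at chr12:55489410-55492647 on the minus strand. Levels of Nfkbia in libraries labelled CIS-/- were 269, 279 and 267 CPM unstimulated, 261, 250 and 257 CPM at 4 h and 2400, 2085 and 2118 CPM at 24 h. WT libraries held 154, 156 and 156 CPM unstimulated, 220, 218 and 227 CPM at 4 h and 225, 222 and 234 CPM at 24 h. The genotypes were apart at all 3 times, closest at 4 h, and the 3 late libraries labelled CIS-/- stood above every other library of the series. The 24 h difference was 9.71-fold (log2 3.28 ± 0.04, adjusted p = 5.67e-58), against 1.16-fold (log2 0.21 ± 0.04, adjusted p = 3.78e-05) at 4 h and 1.75-fold (log2 0.80 ± 0.04, adjusted p = 5.02e-25) unstimulated. At 4 h against unstimulated Nfkbia rose in WT libraries (log2 0.51 ± 0.04, adjusted p = 1.86e-17) and was called lower in the libraries labelled CIS-/- (log2 -0.09 ± 0.04, adjusted p = 0.0404).

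That small fall of Nfkbia was lost without unstimulated replicate 2 labelled CIS-/- (adjusted p = 0.152), without replicate 2 or 3 labelled CIS-/- at 4 h (adjusted p = 0.158 and 0.0563) and without WT 24 h replicate 1, 2 or 3 (adjusted p = 0.0884, 0.0867 and 0.0906). It was also lost with RLE factors (adjusted p = 0.0667), DESeq2 (0.141), limma-voom (0.0908), no filter (0.256), a strict filter (0.0887) and a non-robust prior (0.0521, all adjusted p).

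Nfkbib (IκBβ) lies at chr7:28758251-28767512 on the minus strand and was near 20 CPM in 5 of the 6 groups. Libraries labelled CIS-/- held 19.8, 21.3 and 22.5 CPM of Nfkbib unstimulated, 23.5, 22.5 and 23 CPM at 4 h and 109, 98.1 and 101 CPM at 24 h. WT libraries held 18.0, 18.1 and 16.4 CPM unstimulated, 20.6, 22.4 and 20.1 CPM at 4 h and 18.3, 19.4 and 17.5 CPM at 24 h. Only the libraries labelled CIS-/- at 24 h left that low range, 5.56-fold above WT (log2 2.47 ± 0.06, adjusted p = 2.03e-44). The genotype difference was 0.28 ± 0.07 (log2, adjusted p = 0.00307) unstimulated and 0.12 ± 0.08 (log2, adjusted p = 0.326, 95% interval -0.03 to 0.27) at 4 h. Exons of Nfkbib overlap those of Sirt2 on the opposite strand, and whether the counting used strand is not stated, so reads of the pair may not have been kept apart and the level of Nfkbib is uncertain. Sirt2 held 291, 267 and 274 CPM in the libraries labelled CIS-/- at 24 h, against 81.6, 77.7 and 83.9 CPM in WT libraries.

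Nfkbie (IκBε), at chr17:45555703-45563169 on the plus strand, showed the same late step from a steady baseline. Levels of Nfkbie in libraries labelled CIS-/- were 31.3, 34.1 and 30.6 CPM unstimulated, 30.1, 31.4 and 32.4 CPM at 4 h and 146, 145 and 145 CPM at 24 h. WT libraries held 30.3, 32.2 and 30.8 CPM unstimulated, 23.4, 24.8 and 26.3 CPM at 4 h and 31.7, 30.8 and 32.3 CPM at 24 h. The unstimulated genotypes overlapped, WT libraries dipped at 4 h, and the libraries labelled CIS-/- were far higher at 24 h only. The difference was 0.04 ± 0.06 (log2, adjusted p = 0.685, 95% interval -0.07 to 0.16) unstimulated, 0.34 ± 0.07 (log2, adjusted p = 6.84e-05) at 4 h and 2.20 ± 0.05 (log2, adjusted p = 1.26e-45) at 24 h.

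The summed level of the classical inhibitors, which is mostly Nfkbia, was also set against that of the subunits. Nfkbib and Nfkbie rose 4.49-fold and 4.63-fold between 4 h and 24 h in the libraries labelled CIS-/-, less than the subunits Relb (7.07-fold) and Nfkb2 (6.02-fold). The 3 classical inhibitor genes summed to 1462 ± 110 CPM per kb in the libraries labelled CIS-/- at 24 h and 160 ± 3.7 CPM per kb in WT libraries. Nfkbia made up 93.5 ± 0.3% of that sum in the libraries labelled CIS-/- and 88.2 ± 0.39% in WT libraries. The ratio of inhibitor to subunit CPM per kb at 24 h was 5.22 ± 0.5 in the libraries labelled CIS-/- and 1.57 ± 0.037 in WT libraries. At 4 h it was 1.16 ± 0.027 in the libraries labelled CIS-/- and 1.21 ± 0.018 in WT libraries, and unstimulated it was 2.12 ± 0.081 in the libraries labelled CIS-/- and 1.5 ± 0.021 in WT libraries. The plot of inhibitor over subunit transcripts shows that the late group labelled CIS-/- stood apart from the other 5. Nfkbia had the highest CPM per kb of the 10 genes in all 6 groups. The ratio and this order also depend on the exon lengths used.

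Nfkbiz encodes IκBζ, an atypical nuclear member that binds p50 and helps switch on a subset of secondary response genes, and lies at chr16:55811375-55838899 on the minus strand. Libraries labelled CIS-/- held 373, 370 and 381 CPM of Nfkbiz unstimulated, 101, 99.5 and 93.7 CPM at 4 h and 249, 253 and 263 CPM at 24 h. WT libraries held 236, 237 and 232 CPM unstimulated, 75.1, 73.3 and 75.2 CPM at 4 h and 51.0, 49.9 and 51.9 CPM at 24 h. Nfkbiz was the only one of the 10 genes that was highest in unstimulated cells in both genotypes, and no neighbouring groups in the order of levels overlapped. At 4 h against unstimulated it fell in both genotypes, at -1.93 ± 0.04 (log2, adjusted p = 5.5e-48) in the libraries labelled CIS-/- and -1.66 ± 0.04 (log2, adjusted p = 2.19e-43) in WT libraries. Between 4 h and 24 h it rose by 1.38 ± 0.04 (log2, adjusted p = 8.71e-40) in the libraries labelled CIS-/- and fell again in WT libraries, at -0.55 ± 0.04 (log2, adjusted p = 1.28e-17). With library sizes alone that second WT fall was -0.06 (log2, adjusted p = 0.163).

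Tnfaip3, whose product A20 removes the ubiquitin chains that carry the signal to the IκB kinases, lies at chr10:19000910-19015657 on the minus strand. Levels of Tnfaip3 in libraries labelled CIS-/- were 69.2, 74.5 and 73.7 CPM unstimulated, 98.4, 91.6 and 97.1 CPM at 4 h and 472, 519 and 532 CPM at 24 h. WT libraries held 41.1, 38.0 and 40.4 CPM unstimulated, 69.7, 65.4 and 73.9 CPM at 4 h and 66.3, 68.6 and 68.2 CPM at 24 h. The genotypes were apart at each time, and in WT libraries the 4 h and 24 h values overlapped. The genotype difference was 1.82-fold (log2 0.86 ± 0.05, adjusted p = 5.06e-21) unstimulated, 1.37-fold (log2 0.46 ± 0.05, adjusted p = 4.38e-11) at 4 h and 7.49-fold (log2 2.91 ± 0.04, adjusted p = 3.26e-54) at 24 h.

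The earlier genotype differences were smaller than those at 24 h. In the unstimulated libraries 7 of the 10 genes were called higher in those labelled CIS-/-, where 12.9% of all genes were called higher and 9.41% lower. The other 3, Relb, Nfkb1 and Nfkbie, were not called. The median log2 fold change was 0.38 over the 10 genes and -0.01 over all genes, and Tnfaip3, Nfkbia, Nfkbiz (0.67 ± 0.03, adjusted p = 9.86e-25), Rel (0.60 ± 0.05, adjusted p = 7.91e-14) and Nfkb2 (0.48 ± 0.05, adjusted p = 9.23e-13) led on that scale. Erythroid and megakaryocyte markers summed to 122 to 127 CPM in the unstimulated libraries labelled CIS-/-, against 46.1 to 49.2 CPM in WT libraries. Among neutrophil markers unstimulated, Ltf averaged 9784 CPM in the libraries labelled CIS-/- against 11377 in WT libraries, and Mpo 5.59 against 10.3 CPM. Retnlg went the other way, at 9036 against 8438 CPM, as did Csf3r, at 4438 against 4219 CPM. The part of these markers in the unstimulated result was not tested. At 4 h 8 of the 10 were called higher, where 8.0% of all genes were called higher and 9.3% lower, and Rela and Nfkbib were not called. Marker sums at 4 h were 81.5 to 115 CPM in the libraries labelled CIS-/- against 35.1 to 39.5 CPM in WT libraries for erythroid cells and megakaryocytes, and 40.2 to 43.0 CPM against 18.9 to 25.2 CPM in WT for eosinophils, basophils and mast cells. Of the neutrophil markers at 4 h, Ngp averaged 5556 CPM in the libraries labelled CIS-/- against 7160 in WT libraries, and Ltf 4843 against 6147 CPM. Cxcr2 went the other way, at 3881 against 3408 CPM. Monocyte and macrophage markers summed to 215 to 220 CPM in the libraries labelled CIS-/- at 4 h, against 158 to 165 CPM in WT libraries, and dendritic cell markers to 187 to 196 CPM in those labelled CIS-/-, against 222 to 234 CPM in WT; the part of these markers in the 4 h result was not tested. The 4 h median was 0.27 over the 10 genes and -0.02 over all genes. No log2 difference reached 1 at either time. Groups did not overlap, with the libraries labelled CIS-/- higher, for 8 of the 10 unstimulated (19.5% of all genes) and 9 of the 10 at 4 h (14.0% of all genes).

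**Figure D3:**
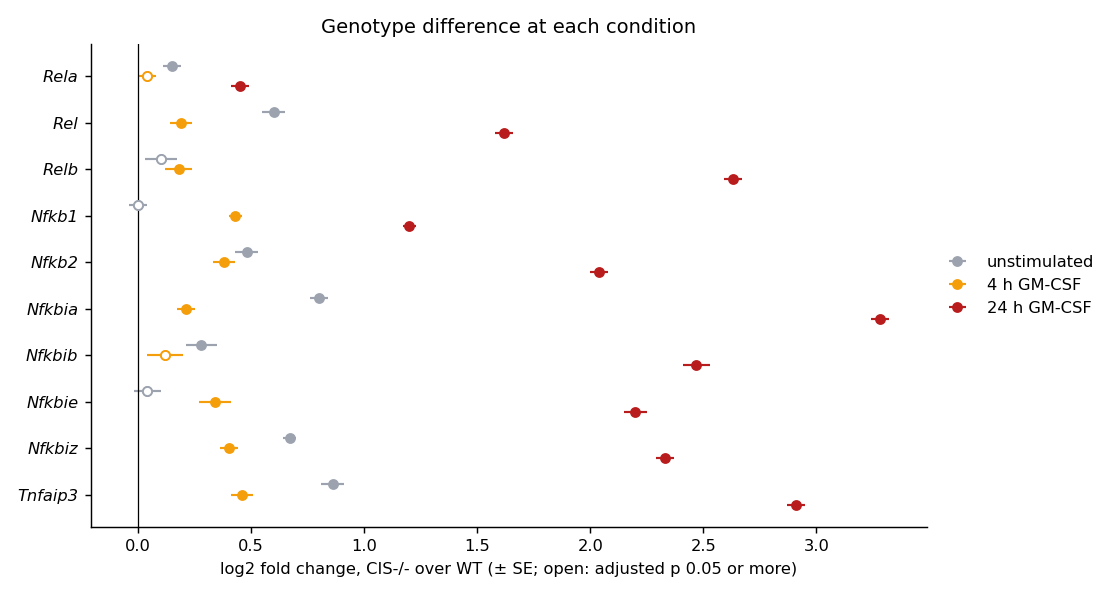
Log2 fold change of the libraries labelled CIS-/- over WT libraries for each gene, unstimulated and at 4 h and 24 h with GM-CSF; bars are standard errors and open points have an adjusted p of 0.05 or more. The 24 h points lie to the right of the others for all 10 genes, from 0.45 for Rela (-0.08 with library sizes alone) to 3.28 for Nfkbia.

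Against their own unstimulated libraries, both genotypes changed some of the 10 genes by 4 h. Libraries labelled CIS-/- at 4 h had 4 genes called higher and 2 lower (37.9% and 39.1% of all genes), and WT libraries had 6 higher and 2 lower (38.1% and 38.2% of all genes). Nfkb1, Rel, Relb and Tnfaip3 were higher and Nfkbiz lower in both. Read against the shares of all genes, these counts are no result about the 10. At 24 h against unstimulated 9 of the 10 were called higher and Nfkbiz was called lower in those labelled CIS-/-, where 42.1% of all genes were called higher and 42.0% lower. In WT libraries 6 were called higher and Nfkbiz lower, where 40.7% of all genes were called higher and 37.7% lower, and Nfkb1, Nfkbib and Nfkbie were not called. Relb rose most over the 24 h in both genotypes, 12.7-fold (log2 3.67 ± 0.05, adjusted p = 5.03e-56) in the libraries labelled CIS-/- and 2.2-fold (log2 1.14 ± 0.06, adjusted p = 7.29e-26) in WT libraries.

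The step between 4 h and 24 h uses no unstimulated library, and over it the genotype differences of all 10 genes grew, Rela excepted with library sizes alone. In the libraries labelled CIS-/- 9 of the 10 genes rose and Nfkb1 fell, where 37.8% of all genes were called higher and 37.9% lower, with a median log2 fold change of 2.19. In WT libraries 4 genes rose and 4 fell, where 35.7% of all genes were called higher and 39.6% lower, with a median of -0.00. The WT calls were Nfkb2, Relb, Nfkbie and Rela higher and Nfkb1, Nfkbiz, Rel and Nfkbib lower. The WT fall of Nfkbib (log2 -0.19 ± 0.07, adjusted p = 0.0158) was lost without WT 4 h replicate 2 (adjusted p = 0.126) or WT 24 h replicate 3 (adjusted p = 0.0937), and with DESeq2 (adjusted p = 0.0605), no filter (0.0945) or only the groups compared (0.0902). The WT rise of Rela (log2 0.11 ± 0.04, adjusted p = 0.00723) was lost without WT 4 h replicate 2 (adjusted p = 0.0504). With library sizes alone 7 of the 10 were called higher and 1 lower in WT libraries at this step, where the median of all genes was 0.45.

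**Figure D4:**
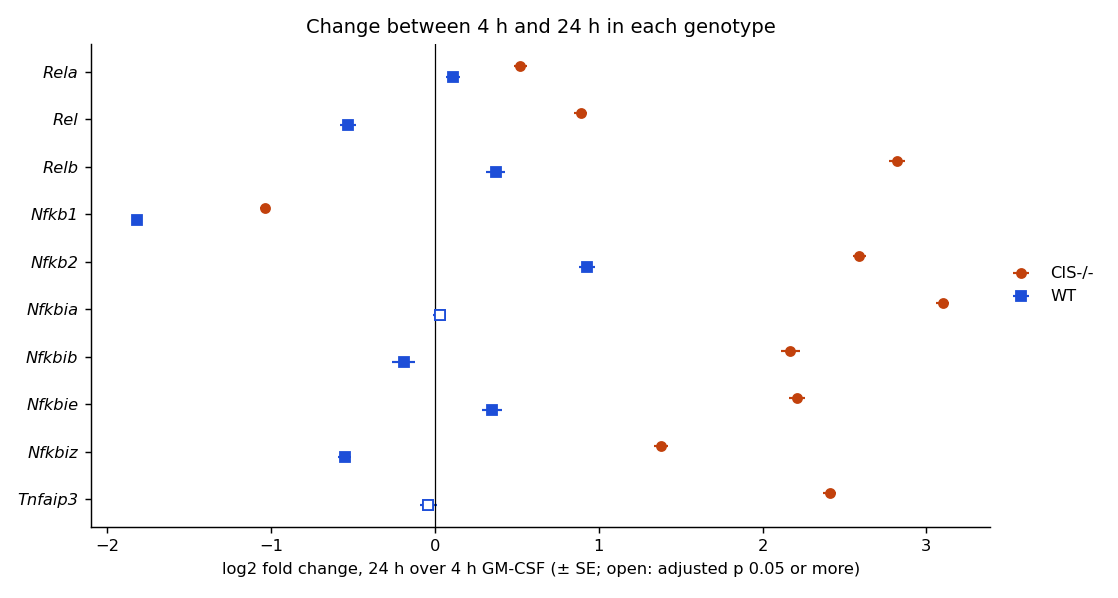
Log2 fold change of 24 h over 4 h with GM-CSF for each gene, in libraries labelled CIS-/- (circles) and WT libraries (squares); bars are standard errors and open symbols have an adjusted p of 0.05 or more. The circle lies to the right of the square for every gene; Rel, Nfkbib and Nfkbiz rose in one and fell in the other, though with library sizes alone the WT values were -0.04, 0.30 and -0.06.

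The difference between the genotypes in their change was tested as a genotype-by-time interaction. From 4 h to 24 h all 10 interactions were positive and called, where 33.9% of all genes were called positive and 32.1% negative. Nfkbia had the largest, at 3.07 ± 0.05 (log2, adjusted p = 1.87e-48), followed by Relb and Tnfaip3 at 2.45 each and Nfkbib at 2.35 on the same scale. From unstimulated to 24 h all 10 were again positive and called, where 31.6% of all genes were called positive and 33.1% negative, led by Relb at 2.53 ± 0.08 (log2, adjusted p = 2.19e-35). With library sizes alone the Rela interactions turned to -0.12 from 4 h and -0.19 from unstimulated, and the other 9 genes kept a positive sign. From unstimulated to 4 h 2 interactions were called positive and 4 negative, where 5.32% of all genes were called positive and 10.4% negative. Nfkb1 rose further in the libraries labelled CIS-/- (interaction 0.43 ± 0.05, log2, adjusted p = 1.5e-10), and Nfkbia moved the most the other way (-0.59 ± 0.06, log2, adjusted p = 5.63e-13). The positive Nfkbie interaction (0.29 ± 0.09, log2, adjusted p = 0.0133) was lost without WT 4 h replicate 1 (adjusted p = 0.0643).

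Other genes of the pathway were counted in lists that leave out the 10, and counts are given for the libraries labelled CIS-/- against WT libraries at 24 h, where 38.2% of all genes were called higher and 38.1% lower. These lists were drawn up with earlier results of these data known, so their counts are descriptions and no independent support. Of 32 NF-κB target genes tested, 30 were higher and 2 lower, with a median log2 fold change of 2.94. Csf1, which encodes the macrophage growth factor M-CSF, was at 5404 ± 148 CPM in the libraries labelled CIS-/- and 198 ± 3.7 CPM in WT libraries (SD, n = 3 each, log2 4.77 ± 0.04, adjusted p = 5.02e-68). Il1rn, which encodes the interleukin-1 receptor antagonist, was at 7212 ± 181 CPM in the libraries labelled CIS-/- and 593 ± 19 CPM in WT libraries. Ptgs2, the inducible cyclooxygenase gene, was at 535 ± 11 CPM in the libraries labelled CIS-/- and 20.0 ± 1.6 CPM in WT libraries. Il6, Il12b, Ccl5, Nos2 and Cd40 of this list did not pass the filter on low counts.

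Genes that act upstream of the inhibitors were counted at 24 h in 3 lists. The kinase list holds genes of IκB kinases, IKK-related and activating kinases and their partners, some of which encode no kinase. In the libraries labelled CIS-/-, 8 of its 11 genes were higher and 3 lower. Ikbke led, which encodes the IKK-related kinase IKKε, at 372 ± 18 CPM in those libraries and 47.1 ± 2.5 CPM in WT libraries (log2 2.98 ± 0.04, adjusted p = 1.67e-54). Ikbkg, which encodes the scaffold NEMO, was at 365 ± 10 CPM in the libraries labelled CIS-/- and 195 ± 6.3 CPM in WT libraries. Of 22 adaptor and ubiquitin ligase genes, 10 were higher and 10 lower, with a median log2 fold change of -0.01, near that of all genes. Within that list Irak2, a kinase-like adaptor of Toll-like and interleukin-1 receptors, was at 1440 ± 29 CPM in the libraries labelled CIS-/- and 190 ± 2.9 CPM in WT libraries. Of 19 activating receptor genes tested, 17 were higher and 2 lower, led by Cd14, a co-receptor for bacterial lipopolysaccharide, at 1436 ± 51 CPM in the libraries labelled CIS-/- and 97.5 ± 1.9 CPM in WT libraries. Tlr2 and Tnfrsf1b stand in both the receptor and the target lists.

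Other negative regulators rose in part at 24 h. In the libraries labelled CIS-/-, 12 of 18 tested were higher and 5 lower, with a median log2 fold change of 0.54. Zc3h12a, which encodes an RNA-cutting enzyme that degrades inflammatory transcripts, was at 233 ± 4.4 CPM in the libraries labelled CIS-/- and 59.8 ± 0.76 CPM in WT libraries. Tnip1, which encodes a partner of A20, was at 253 ± 5.8 CPM in the libraries labelled CIS-/- and 94.8 ± 4 CPM in WT libraries. Nfkbid, which encodes a nuclear IκB protein, was at 202 ± 2.8 CPM in the libraries labelled CIS-/- and 83.7 ± 1.9 CPM in WT libraries. Before the late time the target list also had the largest share called higher of the 5 lists, with 18 of 32 higher and 3 lower unstimulated (12.9% and 9.41% of all genes) and 15 higher and 1 lower at 4 h (8.0% and 9.3% of all genes). Of the 11 genes in the kinase list, 1 was higher and 3 lower unstimulated, and 1 was higher at 4 h. The shares higher, 9.09% at both times, are near those of all genes. The share lower unstimulated was 27.3%, from 3 of 11 genes, against 9.41% of all genes. Unstimulated, Ccl4, a chemokine gene, was at 34.8 ± 0.59 CPM in the libraries labelled CIS-/- and 7.91 ± 0.57 CPM in WT libraries.

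**Figure D5:**
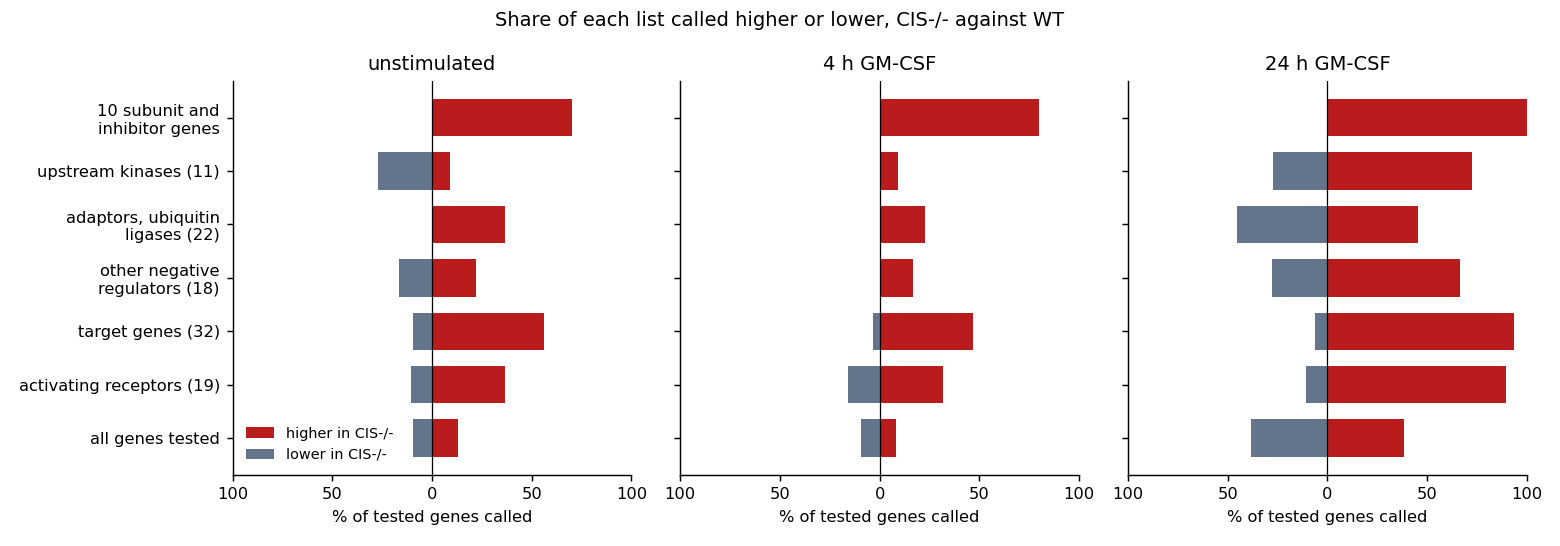
Share of tested genes called higher (to the right) or lower (to the left) in the libraries labelled CIS-/- against WT libraries, for the 10 genes, 5 lists of other pathway genes (number tested in brackets) and all 11569 genes, at each condition. At 24 h 30 of 32 target genes and 17 of 19 receptor genes were higher, while the 22 adaptor and ubiquitin ligase genes split 10 and 10. The 10 genes and the lists were chosen with earlier results of these data known.

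Ranked by group mean CPM, the libraries labelled CIS-/- at 24 h were the highest group for 8 of the 10 genes, Nfkb1 being highest in those at 4 h and Nfkbiz in those unstimulated. The unstimulated WT libraries were the lowest group for 7 of the 10. The highest group mean was between 1.52 times the lowest, for Rela, and 14.2 times, for Nfkbia. The ranges of neighbouring groups in that order overlapped at 3 of the steps for Rela, Nfkbib and Nfkbie, at 2 for Nfkb1, Nfkb2 and Tnfaip3 and at 1 for Rel and Nfkbia. For Relb and Nfkbiz all 6 groups were apart.

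The 10 genes were also compared with all tested genes for likeness of pattern, by Pearson's r of log2(CPM + 1) over the 18 libraries, given as a description since all genes share the same libraries and groups. Relb was most like Adora2b, an adenosine receptor gene (r = 0.996), and Nfkbia most like Eid3 (r = 0.996). Tnfaip3 was most like Cd14 (r = 0.992) and Birc3, which encodes the ubiquitin ligase cIAP2 (r = 0.988). Nfkbie was most like the neutrophil chemokine gene Cxcl2 (r = 0.988). Nfkbiz, with its unstimulated peak, was most like Stim2 (r = 0.989). Rela, whose levels moved least, had the lowest best match, Snx5 (r = 0.978).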

How the data were processed

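RNA of 18 libraries was measured, 6 groups of 3, prepared with a strand-specific kit per the labels' protocols. The deposited values are raw read counts by Ensembl gene ID. The submitters' processing notes name Trimmomatic, STAR, featureCounts and mm10 for the authors' steps; the sources used here give no versions or annotation release for these, nor whether counting used strand. Of the late time, the labels' treatment protocol gives another value than the titles, and the 24 h of the titles was used. GENCODE M21 (GRCm38) gave symbols for 53274 of 53379 IDs, 50604 of them by the full versioned ID.

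In R 4.3.3, edgeR 4.0.16 kept 11569 genes with filterByExpr, holding 99.928% of counts, and fitted 1 quasi-likelihood model with TMM factors (0.884 to 1.29) to the 6 groups; contrasts were tested two-sided with Benjamini-Hochberg adjustment. The common biological coefficient of variation was 3.3%. Standard errors come from the F statistic, and SDs are over libraries. The procedure was also run on simulated counts in which few genes were changed. The 24 h data hold many more changed genes, so that run does not test the scaling of the libraries. No pair of replicates was a copy of the same counts (chi-square per degree of freedom 1.285 to 8.461 over 18 pairs). This does not exclude libraries made from the same RNA, which would also differ by counting. Alternatives were RLE factors, no TMM factors, DESeq2 1.42.0, limma-voom 3.58.1, no filter, a strict filter (50 counts in 3 libraries), the compared groups only, a non-robust prior, a replicate block and each library left out.

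The 10 genes and all lists were chosen with earlier results of these data known. All 10 are named; of each list up to 4 genes per comparison were eligible, taken from called genes with a mean of 1 CPM or more in order of adjusted p, as room allowed, and for likeness the 3 genes with the highest r. Defining and leading genes of marker lists are named to describe their sums. Comparisons within a genotype share libraries and are given side by side. Batches are not given in the labels.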

Additional observations from a re-analysis of the deposited data

Results flagged for a closer look

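The change with time differed between the genotypes, by the interaction test in edgeR, in 26 of 30 tests on the 10 genes. Of all genes, 5.32% were called positive and 10.4% negative from unstimulated to 4 h, 31.6% and 33.1% from unstimulated to 24 h, and 33.9% and 32.1% from 4 h to 24 h. Each value is the log2 change in the libraries labelled CIS-/- minus that in WT libraries. From unstimulated to 4 h it was positive for Nfkb1 at 0.43 and Nfkbie at 0.29, and negative for Rel at -0.40, Nfkbia at -0.59, Nfkbiz at -0.27 and Tnfaip3 at -0.40. From unstimulated to 24 h it was 0.30 for Rela, 1.02 for Rel, 2.53 for Relb, 1.21 for Nfkb1, 1.55 for Nfkb2, 2.48 for Nfkbia, 2.19 for Nfkbib, 2.16 for Nfkbie, 1.65 for Nfkbiz and 2.05 for Tnfaip3. Both of these sets rest on the unstimulated libraries, where Cish goes against the label. From 4 h to 24 h, without those libraries, it was 0.41 for Rela, 1.42 for Rel, 2.45 for Relb, 0.78 for Nfkb1, 1.66 for Nfkb2, 3.07 for Nfkbia, 2.35 for Nfkbib, 1.86 for Nfkbie, 1.93 for Nfkbiz and 2.45 for Tnfaip3. The 2 late Rela values turn negative with library sizes alone.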

How the results depend on the processing

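Of 3240 values for the 10 genes recomputed under 27 settings, 3187 kept their direction and their side of the threshold, 28 lost the call, 8 gained one and 17 changed sign. Of these changes, 18 came with library sizes and no TMM factors and 21 with a library left out. Without TMM factors the genes called lower among the 10 were 1 in the 24 h genotype comparison, 5 at 4 h against unstimulated in the libraries labelled CIS-/-, 4 at that step in WT, and 1 for the interaction from unstimulated to 24 h; WT at 24 h against 4 h had 7 higher and 1 lower. Signs turned for Rela at 24 h between genotypes (-0.08), in WT at 4 h against unstimulated (-0.14) and in the interactions to 24 h from unstimulated (-0.19) and from 4 h (-0.12), for Nfkb2 in WT at 4 h (-0.11), for Nfkbib at 4 h in the libraries labelled CIS-/- (-0.03) and in WT at 24 h against 4 h (0.30), and for Tnfaip3 in WT at 24 h against 4 h (0.45). Over all genes this scaling called 1660 lower between unstimulated genotypes, 2558 higher and 6999 lower between genotypes at 24 h, 6763 and 2506 in WT at 24 h against 4 h, 2028 and 6178 for the interaction from unstimulated to 24 h and 2247 and 6154 for that from 4 h; the shift of the median of all genes moves with it. The unstimulated Nfkb1 difference, near 0, became 0.01 with RLE factors and 0.0047 with DESeq2, and Tnfaip3 in WT at 24 h against 4 h became 0.02 with the compared groups only. DESeq2 called 693 genes lower between unstimulated genotypes, against 1089, and the compared groups only gave 950 positive interactions from unstimulated to 4 h, against 615. At 4 h against unstimulated in the libraries labelled CIS-/-, 1 of the 10 in place of 2 was called lower with RLE factors, DESeq2, limma-voom, either other filter and the non-robust prior; the cause was not tested. With each library left out, that count ran between 1 and 2, as did the count of positive interactions to 4 h, and values near 0 changed sign: Nfkb1 (-0.02 to 0.01) and Nfkbie (-0.01 to 0.07) between unstimulated genotypes, Nfkbie in WT at 24 h against unstimulated (-0.01 to 0.05) and at 4 h in the libraries labelled CIS-/- (-0.07 to 0.02), and Tnfaip3 in WT at 24 h against 4 h (-0.08 to 0.01). The replicate block kept all 10 genes higher at 24 h and changed no call among the 10. Same-numbered deviations correlated at -0.191 to 0.204 (median 0.0112, against 0.00521 for other pairs), and 8 of 18 libraries correlated best with their own number. This check showed no pairing by replicate number, but it cannot exclude a pairing that leaves deviations too small to see. Depth limits Nfkbib and Relb most, with 250 and 261 counts in their lowest libraries.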
